A study of Homo sapiens with 52 samples.

Results

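A set of 9 genes of the osmotic and ion balance response were followed through the RNA-seq tables of WI-38 cells driven into senescence by different stimuli: NFAT5, AKR1B1, SLC5A3, SLC6A6, SLC6A12, SGK1, ATP1B1, AQP1 and SLC12A2. They were chosen by symbol, and all of them were present among the 59408 genes of the tables. WI-38 is an established line of normal human lung fibroblasts, and young cells at population doubling levels (PDLs) 32 to 46 were the untreated control. Young cells were exposed for 24 h to 0.009% SDS, a detergent that injures the plasma membrane (PMD-Sen), to 75 mM KCl, used to let calcium in (Ca2+-Sen), or to 250 nM doxorubicin, a DNA-damaging drug (DXR, DDR-Sen). The stimulus was then washed away, and RNA was taken at the end of the exposure (day 0), daily up to day 4, and then on days 6, 8 and 16. Cells in replicative senescence (RS) at about PDL 52 were not exposed to any of these. There were 2 libraries in each of 26 groups, 52 in all, and each of the 25 treated or RS groups was compared with the same 2 untreated libraries. The labels give the untreated libraries no day, so changes over the days after the wash cannot be told apart from time in culture.

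Cells that lose water to a salty medium first take up ions and then exchange them for small organic molecules, the organic osmolytes, which do not disturb proteins. NFAT5 (also called TonEBP) is the transcription factor that switches on the genes for osmolyte synthesis and uptake when tonicity rises, and this system is best known from the kidney medulla. Sodium and potassium gradients are kept up by the Na,K-ATPase, water crosses the membrane through aquaporins, and chloride is carried in with sodium and potassium by cotransporters. The question asked of the data was whether these genes answered 75 mM KCl otherwise than SDS or DXR. SDS also lets calcium into these cells, according to the study, but the data used here do not measure how much or how long with either stimulus. None of the groups analysed here raised osmolality with another solute. The sources used here do not say whether the osmolality of the KCl medium was held. Potassium, osmolality and calcium entry with KCl therefore cannot be told apart.

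Levels are given as normalized read counts, that is, the reads of a gene in a library divided by the size factor of that library, on a scale where the geometric mean size factor of the untreated libraries is 1. The larger library of a group, by size factor, is named before the smaller. Untreated libraries held 18.8 and 15.4 (in units of 1000000 reads assigned to genes), and the others between 19.1 and 58. A gene was called changed when the deposited Wald p-value, adjusted by the Benjamini-Hochberg method over 14182 genes with a mean level of at least 10, was under 0.05. The study's methods call the 2 libraries of a group independent samples, while the labels do not say whether they came from separate cultures, so these p-values measure the spread between the libraries. All 10 lung fibroblast markers were detected, with a summed level of 515137 in untreated cells and between 216511 and 546200 elsewhere. The lowest of these sums was that of KCl day 0, against 442923 for SDS and 500053 for DXR on the same day. Endothelial markers summed to 27.6 in untreated cells and 129 on KCl day 0, mostly PECAM1, with CDH5 at 0.73 or less. Epithelial markers summed to 731 in untreated cells, 184 on KCl day 0 and 1572 on KCl day 3, the highest. White blood cell markers summed to 17.2 in untreated cells and 22.9 on KCl day 0. Their lowest sum was 10.4 on SDS day 1 and their highest 151 on KCl day 8. The part of these marker shifts in the results was not tested, and in bulk RNA fewer cells of a type and less RNA per cell cannot be told apart.

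At the end of the KCl exposure, 6 of the 8 members that could be counted had risen and none had fallen, while AQP1 and SLC12A2 were not called. AKR1B1 was 13.8-fold above untreated cells, SLC5A3 9.54-fold, ATP1B1 2.73-fold, SGK1 2.31-fold, SLC6A6 1.88-fold and NFAT5 1.48-fold. SLC6A12 was left out of every count, because it passed the level filter only through KCl day 0, with a mean level of 14.2 over all groups and 1.80 without that day. The KCl day 0 comparison called 52.2% of all genes, so a call alone is common there. The median log2 change of the 8 members was 1.06, beside -0.04 over all genes tested. On the same day SDS raised 2 members and lowered 2, with 41.8% of all genes called, and DXR raised 1 and lowered none, with 29.2% called.

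**Figure D1:**
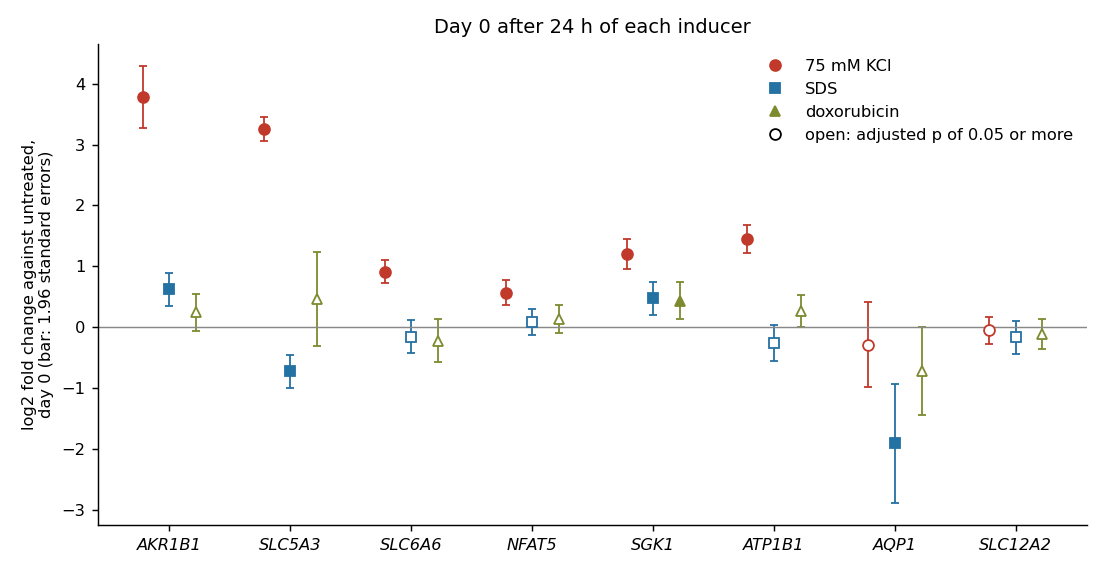
Log2 fold change against untreated cells on day 0 for each counted gene (1 column per gene) with KCl, SDS and DXR, with bars for 95% intervals and open symbols for values not called. AKR1B1 and SLC5A3 lie at 3.79 and 3.25 for KCl, while the intervals of SLC12A2 include 0 for KCl.

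AKR1B1 encodes aldose reductase, which reduces glucose to the osmolyte sorbitol. It lies on the minus strand at chr7:134442350-134459284 (GENCODE 29, GRCh38). The untreated libraries held 3543 and 5057 normalized read counts, from 3910 and 4582 reads, the widest gap among the groups for this gene. On KCl day 0 the libraries held 58215 and 60405. They fell back to 18701 and 20912 on day 1, to 7675 and 6831 on day 2, and lay between 3998 and 5712 from day 3 to day 16. The 2 day 0 libraries were thus above all 50 others, of which the highest was a KCl day 1 library at 20912. The log2 change was 3.79 (SE 0.26, adjusted p = 2.52e-46) on day 0 and 2.20 (SE 0.27, adjusted p = 1.50e-13) on day 1, the sixth largest rise on each day among 10033 genes with a mean level of at least 100. On day 2 the value was 0.75, which was not called (adjusted p = 0.0837). The transcript had 252.7 reads in every 1000000 in untreated cells, 3639 on KCl day 0 and 1204 on KCl day 1.

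SDS also raised AKR1B1, less and later. The libraries held 6723 and 6529 on SDS day 0, 10469 and 11203 on day 1 and 8105 and 7864 on day 2, and from day 3 they lay between 3901 and 6059. All of the first 6 were above the untreated pair. The rises were 1.54-fold on day 0 (adjusted p = 2.96e-05), 2.52-fold on day 1 (adjusted p = 4.68e-06) and 1.86-fold on day 2 (adjusted p = 0.00577). Without the larger untreated library the day 0 value fell to a log2 change of 0.39 and was no longer called, and the day 2 call was lost without the same library (lowest log2 value 0.66). After DXR the libraries lay between 3107 and 6654 and no day was called, with 5363 and 4802 on day 0. RS libraries held 6565 and 5255, a log2 change of 0.46 (adjusted p = 0.152). AKR1B10, a close paralog whose reads may be shared in part, moved from 20 in untreated cells to 330 on KCl day 0 and 238 on DXR day 0, small beside the AKR1B1 level.

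SLC5A3 encodes the sodium/myo-inositol cotransporter SMIT1, which brings in the osmolyte myo-inositol. It lies at chr21:34073570-34106262 on the plus strand, and in RefSeq it starts at the same base as MRPS6, a mitochondrial ribosomal protein gene, with the exons of both sharing 273 bases (2.36% of the exon bases of SLC5A3). Because both genes rose together, the 250 bases before this common start (chr21:34073328-34073577, plus strand, RefSeq GRCh38.p14) are shown beside those before a start of AKR1B1 (chr7:134459101-134459350, minus strand), the other large riser, 5′ to 3′.
SLC5A3 and MRPS6: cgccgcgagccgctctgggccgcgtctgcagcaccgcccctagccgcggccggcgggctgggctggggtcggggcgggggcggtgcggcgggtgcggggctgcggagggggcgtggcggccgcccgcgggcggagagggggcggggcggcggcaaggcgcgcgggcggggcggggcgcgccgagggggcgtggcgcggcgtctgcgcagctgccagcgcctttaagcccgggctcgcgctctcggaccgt
AKR1B1: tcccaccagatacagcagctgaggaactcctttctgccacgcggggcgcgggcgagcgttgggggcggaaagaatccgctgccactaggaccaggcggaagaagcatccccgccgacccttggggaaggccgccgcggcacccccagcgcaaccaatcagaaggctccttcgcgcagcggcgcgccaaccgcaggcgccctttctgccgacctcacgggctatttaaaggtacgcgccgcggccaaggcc
G and C made up 84.8% of the former and 68% of the latter. The core TGGAAA of the NFAT5 site, searched on both strands, was in none of the 9 upstream windows listed for 6 of the members and in 18% of all 35116 promoters of the table. The full tonicity element, searched by its consensus, contains this core and so could not be in any of the 9, and it was in 4.16% of all. This says only that these letters are not in these windows. There was no window for NFAT5, SLC6A6 or SLC6A12.

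SLC5A3 held 1055 and 909 normalized read counts in untreated cells and 8875 and 9855 on KCl day 0. By KCl day 1 it held 1011 and 968, within the untreated range. The day 0 pair was above all 50 other libraries, of which the highest held 1715. The log2 change was 3.25 (SE 0.10, adjusted p = 2.20e-227) on KCl day 0, eighth among the 10033 genes, and 0.01 (adjusted p = 0.983) on day 1. MRPS6 moved from 519 to 7621 on KCl day 0 (log2 3.87, SE 0.10) and stood at 774 on day 1, and reads of the 2 genes cannot be told apart where their exons are shared. Later KCl values stayed between 724 and 1405, with a call below untreated on day 8 (724 and 764, log2 -0.40, adjusted p = 0.00313) and above on day 16 (1362 and 1405, log2 0.49, adjusted p = 0.000195).

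The same gene fell during SDS exposure. SDS day 0 libraries held 592 and 595, both below untreated, a fall of 1.65-fold (log2 -0.73, SE 0.14, adjusted p = 1.81e-06). A day after the wash they held 1578 and 1466, both above untreated (1.55-fold, adjusted p = 1.37e-06). On DXR day 0 the libraries stood apart from each other at 1715 and 999, and the change was not called (log2 0.47, adjusted p = 0.42). DXR day 6 libraries held 1309 and 1345 (log2 0.43, adjusted p = 0.00152) and RS libraries 1500 and 1302 (log2 0.51, adjusted p = 0.0242), both called. The DXR day 6 call was lost without the smaller untreated library (lowest value 0.33), the RS call without that or the larger RS library (0.41 to 0.62), and the KCl day 8 call without the larger untreated library (-0.50 to -0.29).

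SLC6A12 encodes the betaine/GABA transporter BGT1, which brings in the osmolyte betaine, and lies at chr12:190077-214570 on the minus strand. Untreated libraries held 0 and 2 reads. On KCl day 0 there were 838 and 675 reads, or 262 and 387 normalized read counts, and on KCl day 1 there were 23 and 18 reads, or 10.8 and 11.7. Every other library held 5.39 normalized read counts or fewer, so the day 0 pair was above all 50 others. With so few untreated reads the ratio of KCl day 0 to untreated cells is loose: it was 308, with an exact 95% interval of 85 to 2543 that covers counting error only. The gene passed the level filter only through KCl day 0, so the ratios here describe its level and are not a test. On KCl day 1 the ratio was 11.3, with an interval of 2.92 to 96. RS libraries, at 5.39 and 2.3, gave a ratio of 4.06 (1.01 to 35.4).

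SLC6A6 encodes TauT, the sodium-coupled transporter of the osmolyte taurine, and lies at chr3:14402576-14489349 on the plus strand. It rose on KCl day 0, fell below untreated cells for 4 sampled days and rose again late. Untreated libraries held 1518 and 1521, and KCl libraries held 2700 and 3015 on day 0, 979 and 981 on day 1, 694 and 728 on day 2, 974 and 911 on day 3, 1036 and 830 on day 4, 1435 and 1668 on day 6, 3771 and 3982 on day 8 and 2569 and 2467 on day 16. The pair was above the untreated pair on days 0, 8 and 16 and below it on days 1 to 4. The rise was 1.88-fold on day 0 (adjusted p = 1.11e-19), the lowest point was 2.14-fold lower on day 2 (adjusted p = 4.22e-21), and the highest was 2.55-fold on day 8 (adjusted p = 1.28e-56).

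A late rise of SLC6A6 was also seen without KCl. SDS libraries held 1547 and 1176 on day 0, dipped to 1024 and 1045 on day 3 (log2 -0.56, adjusted p = 1.93e-05) and reached 3925 and 4290 on day 16, 2.7-fold above untreated (adjusted p = 4.56e-23). DXR libraries held 1582 and 1025 on day 0, dipped to 1043 and 1190 on day 3 (log2 -0.45, adjusted p = 0.00278) and reached 3698 and 3385 on day 16, 2.33-fold above (adjusted p = 1.12e-23). RS libraries held 4019 and 5708, 3.2-fold above (adjusted p = 8.81e-13). These comparisons share their untreated libraries, so that their like direction is not independent. The DXR day 3 call was lost without the larger DXR library (-0.54 to -0.35 over the left-out libraries).

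**Figure D2:**
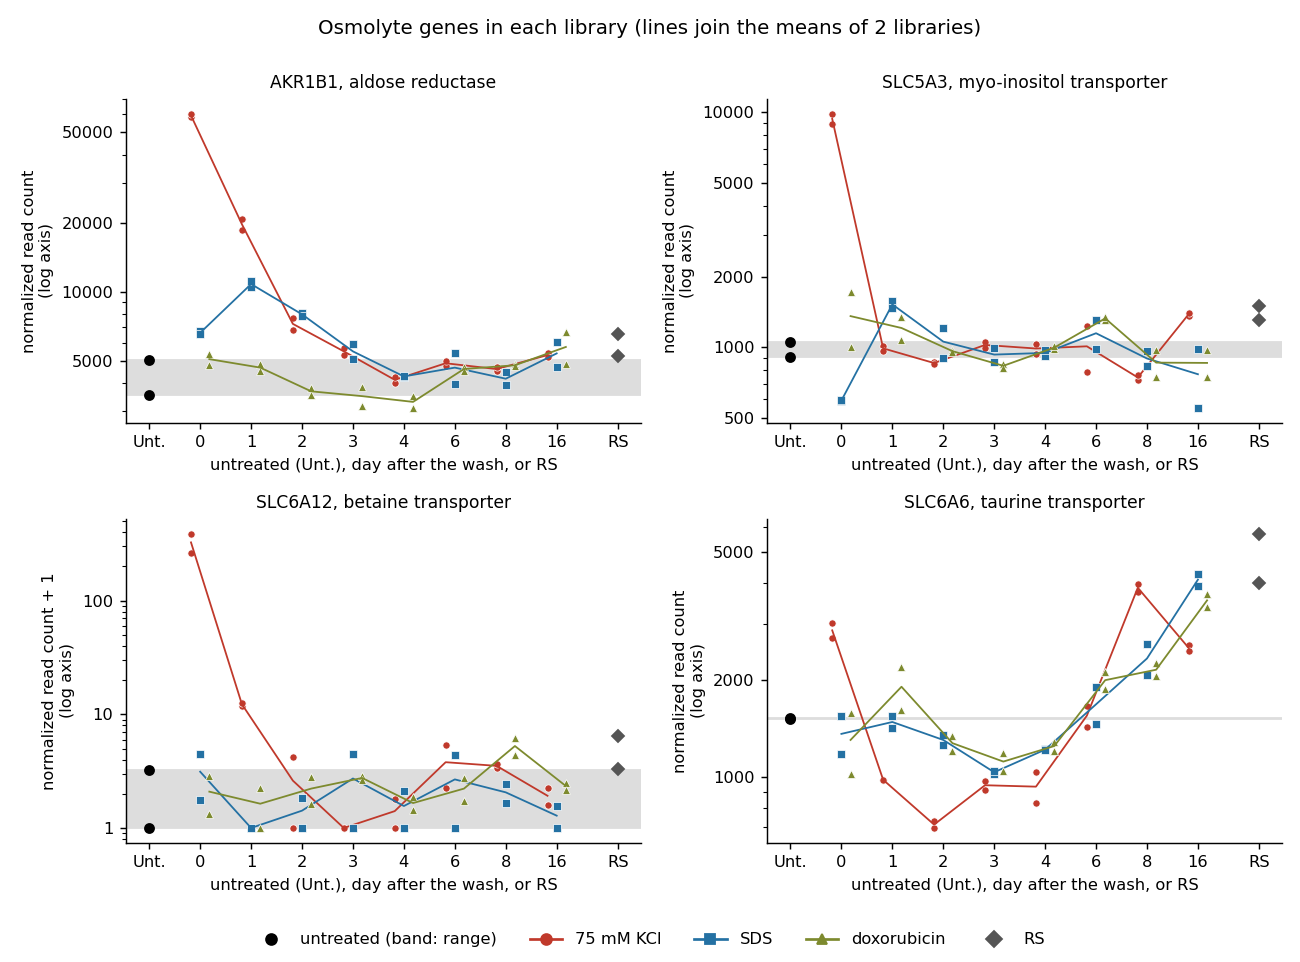
Normalized read count (log axis, plus 1 for SLC6A12) of the 4 osmolyte genes in every library by day, with lines through the means of 2 libraries and a band for the untreated range. KCl day 0 libraries of AKR1B1 (58215 and 60405), SLC5A3 (8875 and 9855) and SLC6A12 (262 and 387) lie above all others, and SLC6A6 climbs late under every inducer.

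NFAT5 itself, at chr16:69565094-69704666 on the plus strand, moved little. It held 1784 and 1899 in untreated cells, 2932 and 2520 on KCl day 0 and 1476 and 1315 on KCl day 1. Both day 0 libraries were above and both day 1 libraries below the untreated pair, although 7 libraries of other groups reached beyond the lower day 0 value. The log2 change was 0.57 (SE 0.10, adjusted p = 2.15e-07) on day 0 and -0.40 (SE 0.10, adjusted p = 0.00115) on day 1. KCl libraries of day 8 (2392 and 2557, log2 0.43, adjusted p = 1.33e-05) and day 16 (2434 and 2716, log2 0.48, adjusted p = 1.02e-05) were again higher. SDS day 0 libraries held 1937 and 1990 and DXR day 0 libraries 2165 and 1872, neither called. Small rises were called on day 4 of KCl, SDS and DXR (log2 0.34, 0.41 and 0.29) and on SDS day 8 (0.37), and the RS value of 0.37 was not called (adjusted p = 0.153). The KCl day 1 call was lost without the smaller KCl library (-0.49 to -0.32 over the left-out libraries). The small rises of day 4 were each lost without the larger untreated library, without the larger SDS or DXR library, or without the smaller KCl library (lowest values 0.27, 0.25 and 0.24 for KCl, SDS and DXR), and that of SDS day 8 without either untreated or the larger SDS library (lowest 0.27). NFAT5 is also controlled by its entry into the nucleus, which RNA-seq does not measure. An overlapping RNA, AC012321.1, shares 9.68% of its exon bases.

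SGK1, the serum- and glucocorticoid-regulated kinase, phosphorylates regulators of ion channels and transporters and is itself induced by cell shrinkage. It lies at chr6:134169246-134318112 on the minus strand. Untreated libraries held 651 and 686 and KCl day 0 libraries 1397 and 1695, above all 50 others, of which the highest was an RS library at 1049. KCl day 1 libraries held 880 and 908, and from day 2 to day 8 the KCl libraries lay between 374 and 493, below both untreated libraries. The log2 change was 1.21 (SE 0.12, adjusted p = 1.17e-20) on day 0 and 0.42 (adjusted p = 0.00417) on day 1. It was negative and called on days 2, 3, 4, 6 and 8, at -0.54, -0.57, -0.57, -0.67 and -0.48. SDS libraries held 958 and 899 on day 0 (1.39-fold, adjusted p = 0.00179) and DXR libraries 1018 and 793 (1.35-fold, adjusted p = 0.0187), and both inducers were followed by called falls on days 4, 6 and 8. The DXR day 0 call was lost without the larger untreated library (log2 0.40) or the larger DXR library (log2 0.25). The KCl calls of days 1, 4 and 6 were each lost without 1 library: the larger untreated (day 1, 0.38 to 0.46 over the left-out libraries), the smaller KCl (day 4, -0.70 to -0.46) and the larger KCl library (day 6, -0.84 to -0.52). The SDS falls of days 4, 6 and 8 and the DXR falls of days 6 and 8 were also lost without at least 1 library, whereas the DXR fall of day 4 was kept.

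ATP1B1 encodes the beta-1 subunit of the Na,K-ATPase, which carries the pump to the membrane, and lies at chr1:169105697-169132722 on the plus strand. Untreated libraries held 744 and 686 and KCl day 0 libraries 1804 and 2103, above all 50 others, of which the highest held 890. By KCl day 1 they held 883 and 832, and the change was not called. The day 0 log2 change was 1.45 (SE 0.12, adjusted p = 1.65e-33). Later falls below untreated cells were called with SDS, DXR and RS, and with KCl on day 8 alone. The libraries held 333 and 327 on KCl day 8 (2.17-fold lower, adjusted p = 9.12e-16), 417 and 294 on SDS day 16 (2.01-fold lower, adjusted p = 3.58e-05), 319 and 335 on DXR day 16 (2.19-fold lower, adjusted p = 3.32e-11) and 482 and 383 in RS (1.65-fold lower, adjusted p = 0.00308). KCl day 8 stood apart over all genes, as described further on, and KCl day 16 libraries held 642 and 631 and were not called. SDS and DXR left the gene uncalled on day 0, at 637 and 559 and at 890 and 830. The RS call was lost without the smaller RS library (-0.90 to -0.57 over the left-out libraries). NME7, on the opposite strand, shares 6.48% of its exon bases and moved from 216 to 372 on KCl day 0. Whether the counting used strand is not given in the sources used here.

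AQP1, the water channel aquaporin 1, did not follow the others. It lies at chr7:30911694-30925516 on the plus strand and was low, with 61.6 and 66.2 in untreated cells. KCl libraries held 45 and 60.2 on day 0 (log2 -0.29, adjusted p = 0.524) and then rose to 102 and 106 on day 1. They held 139 and 116 on day 2, 146 and 138 on day 3, 132 and 147 on day 4 and 129 and 154 on day 6. All of these later libraries were above the untreated pair. The log2 change was 0.70 on day 1, which was not called (adjusted p = 0.113), and between 1.00 and 1.16 on days 2, 3, 4 and 6, each called. On KCl day 8 the libraries held 70.8 and 75.9, which was not called (adjusted p = 0.694), and on day 16 both held 116 (log2 0.86, adjusted p = 0.04). SDS lowered AQP1 on day 0, to 20.3 and 13.7, 3.76-fold lower (SE of the log2 change 0.50, adjusted p = 0.000575). DXR day 0 libraries held 46 and 31.4 (log2 -0.72, adjusted p = 0.139), and DXR day 6 libraries, at 100 and 131, were called higher (log2 0.85, adjusted p = 0.0355). A later climb was not particular to KCl. SDS libraries were above the untreated pair from day 2 to day 16, between 74.1 and 126, though no day was called. DXR libraries were above it on days 2, 4, 6, 8 and 16, with day 6 alone called. The calls of KCl days 2 and 16 and DXR day 6 were each lost without either untreated library and without at least 1 treated library (0.87 to 1.13, 0.81 to 0.91 and 0.65 to 1.04 over the left-out libraries), and that of KCl day 6 without the smaller KCl library (1.01 to 1.27), while days 3 and 4 kept theirs. A gene on the same strand, AC004691.2, shares 26.5% of its exon bases, so part of these reads may be uncertain.

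SLC12A2 encodes NKCC1, the cotransporter of sodium, potassium and chloride that loads cells with ions after shrinkage, and lies at chr5:128083766-128189688 on the plus strand. Its mRNA was close to flat, between 515 and 917 in all 52 libraries. Untreated libraries held 813 and 797 and KCl day 0 libraries 766 and 788, a log2 change of -0.05 (SE 0.11, adjusted p = 0.737). SDS day 16 was the sole call, with 644 and 515 (log2 -0.47, adjusted p = 0.0405), and it was lost without either untreated library or the smaller SDS library (-0.65 to -0.32 over the left-out libraries).

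**Figure D3:**
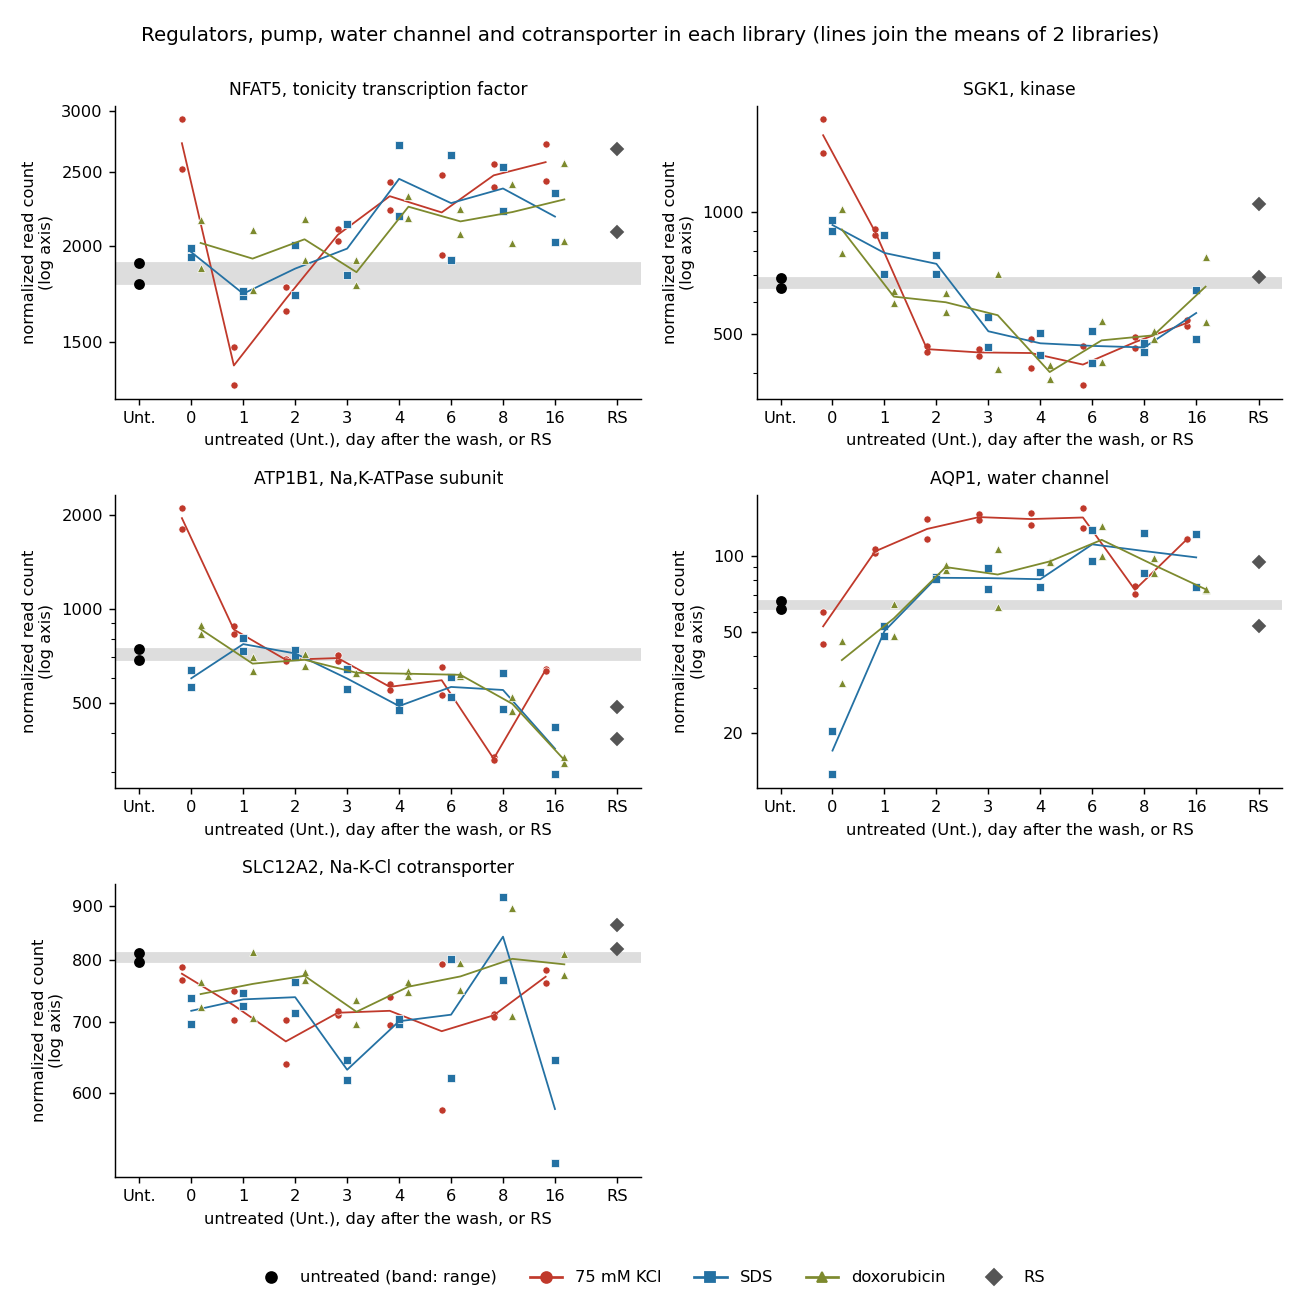
Normalized read count (log axis) of NFAT5, SGK1, ATP1B1, AQP1 and SLC12A2 in every library by day, with lines through the means of 2 libraries and a band for the untreated range. KCl day 0 libraries of SGK1 (1397 and 1695) and ATP1B1 (1804 and 2103) lie above all others, and SLC12A2 stays between 515 and 917. AQP1 climbs after day 0 under every inducer, though with SDS no later day is called.

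Whether KCl differed from the other inducers was tested on the difference of the log2 changes on the same day, with the Wald p-value adjusted over all genes. On day 0 the value of KCl was above that of SDS for 7 of the 8 members, where 40.7% of all genes differed, and above that of DXR for 6, where 39.1% differed. The median difference of the members was 1.34 against SDS and 0.95 against DXR, beside -0.03 and -0.00 over all genes. AKR1B1 was 8.95-fold higher than with SDS (log2 3.16, SE 0.29, adjusted p = 3.25e-25) and 11.7-fold higher than with DXR (adjusted p = 8.99e-30). SLC5A3, which SDS lowered, was 15.8-fold higher than with SDS (adjusted p = 6.95e-113) and 6.9-fold higher than with DXR (adjusted p = 1.57e-10). ATP1B1 was 3.27-fold and 2.27-fold higher (adjusted p = 9.19e-18 and 2.90e-10). SLC6A6 differed by 1.07 and 1.13 on the log2 scale, SGK1 by 0.73 and 0.77, and NFAT5 by 0.47 (adjusted p = 0.00549) and 0.43 (adjusted p = 0.0186). The NFAT5 call against SDS was lost without the larger KCl library (0.36), and that against DXR without either untreated library, the larger KCl or the smaller DXR library (0.32 to 0.43). AQP1, which SDS lowered and KCl left uncalled, differed from SDS alone (1.62, adjusted p = 0.0237). That call was lost without either untreated library or the smaller KCl or SDS library (1.38 to 1.64). The AQP1 difference from DXR had an interval of -0.58 to 1.44. For SLC12A2 the intervals were -0.23 to 0.46 against SDS and -0.27 to 0.40 against DXR, so that a difference of 1 or more on the log2 scale lies outside both.

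**Figure D4:**
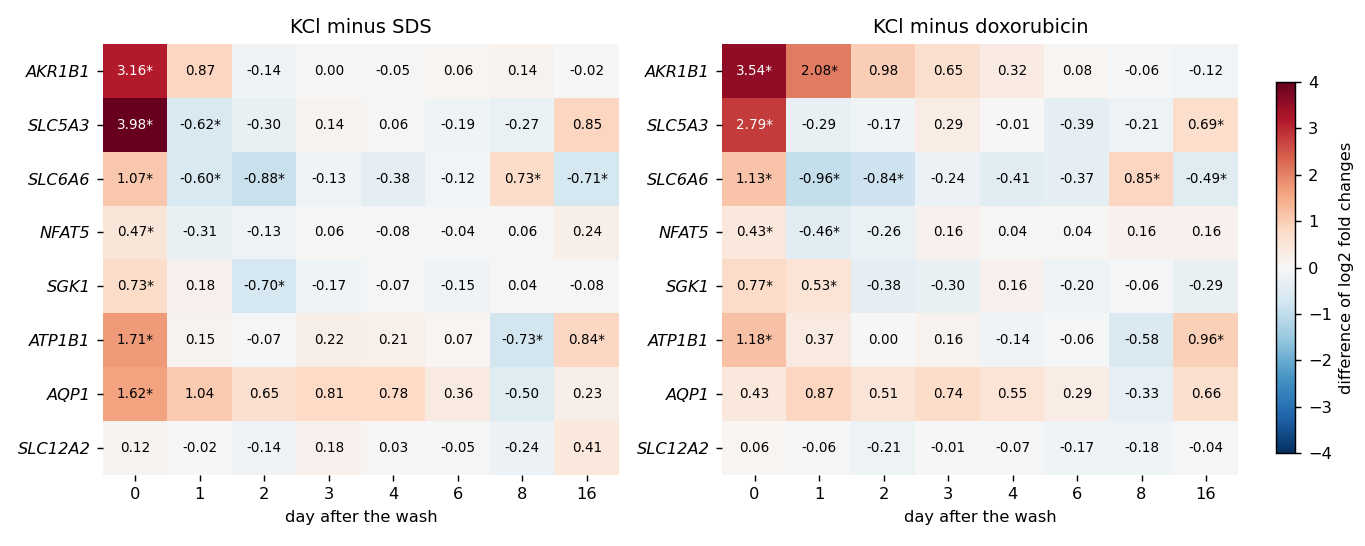
Difference of the log2 fold changes of KCl and SDS, and of KCl and DXR, for each gene (rows) and day (columns), as colours and printed values with a star for a call. On day 0 all genes shown are above 0 against SDS, and all but SLC12A2 are called. From day 3 to day 6 no difference is called with the untreated error counted in both terms.

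After the wash the differences were fewer and mixed. On day 1 KCl stood below SDS for SLC5A3 and SLC6A6 and above it for none (4.72% of all genes differed), and against DXR it stood above for AKR1B1 and SGK1 and below for NFAT5 and SLC6A6 (8.2%). AKR1B1 on that day was 4.24-fold higher than with DXR (adjusted p = 1.89e-06), and against SDS the log2 difference of 0.87 (interval 0.13 to 1.61) was not called (adjusted p = 0.239, and 0.012 with the error of the shared untreated libraries taken out). On day 2 SLC6A6 was lower with KCl than with SDS (log2 -0.88, adjusted p = 5.43e-07) and with DXR (-0.84, adjusted p = 1.97e-06), and SGK1 was lower than with SDS (-0.70, adjusted p = 0.00795), where 2.59% and 3.38% of all genes differed from SDS and DXR. No member difference was called on days 3, 4 and 6, when few genes were called at all: 0.155%, 0.155% and 0.0141% against SDS and 1.64%, 1.21% and 0.719% against DXR. The AQP1 differences on days 2 to 6, between 0.29 and 0.81, were not called. These tests count the untreated error in both terms and so call too little. With it taken out, all 30 calls of the 8 days were kept and 11 were added: against SDS, NFAT5 lower and AKR1B1 and AQP1 higher on day 1 and SLC5A3 higher on day 16, and against DXR, ATP1B1 and AQP1 higher on day 1, AKR1B1 higher and SGK1 lower on day 2, AKR1B1 higher on day 3 (log2 0.65, adjusted p = 0.047), SLC6A6 lower on day 4 (log2 -0.41, adjusted p = 0.0093) and ATP1B1 lower on day 8.

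Late differences centred on SLC6A6 and ATP1B1. On day 8 SLC6A6 was higher with KCl than with SDS (log2 0.73, adjusted p = 0.000655) and DXR (0.85, adjusted p = 2.84e-07), and ATP1B1 was lower than with SDS (-0.73, adjusted p = 0.0276), with 3.5% and 5.16% of all genes differing. On day 16 the signs turned: SLC6A6 was lower with KCl than with SDS (-0.71, adjusted p = 0.0018) and DXR (-0.49, adjusted p = 0.0165), and ATP1B1 was higher (0.84, adjusted p = 0.0277, and 0.96, adjusted p = 0.000107), with 2.93% and 6.82% of genes differing. SLC5A3 on day 16 was higher than with DXR (0.69, adjusted p = 0.0107), and against SDS its difference of 0.85 was not called (adjusted p = 0.0624, and 0.00035 with the shared error taken out).

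KCl day 8 stood apart from its neighbours in time over the whole transcriptome. It called 35.2% of all genes, against 10.8% on day 6 and 12.6% on day 16, and among the members SLC6A6, ATP1B1 and AQP1 took values on that day that neither neighbour shared. The day 8 pairs of SLC5A3 (724 and 764, called lower than untreated) and AKR1B1 (4512 and 4685, not called) also lay below those of both neighbours. White blood cell markers had their highest sum on KCl day 8 as well, at 151 against 17.2 in untreated cells. The part of this marker shift in the day 8 values was not tested. Without day 8, the calls over the remaining KCl days came to 26 in place of 31, those of the KCl and SDS differences to 13 in place of 15, and those of the KCl and DXR differences to 14 in place of 15. This comparison was added after the share of called genes had been seen.

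Over all 8 days, 31 of the 64 member comparisons were called for KCl (19 higher, 12 lower), 19 for SDS (9 higher, 10 lower) and 14 for DXR (7 higher, 7 lower), and 3 of 8 for RS, where 24.3% of all genes were called. For KCl the counts higher and lower were 2 and 2 on day 1 (13.2% of all genes called), 1 and 2 on day 2 (4.64%), 1 and 2 on day 3 (11.1%), 2 and 2 on day 4 (12.8%), 1 and 1 on day 6, 2 and 3 on day 8 and 4 and 0 on day 16. For SDS they were 2 and 0 on day 1 (20.7%), 1 and 0 on day 2 (16.8%), 0 and 1 on day 3 (12.2%), 1 and 3 on day 4 (16.7%), 0 and 1 on day 6 (13.6%), 2 and 1 on day 8 (12.6%) and 1 and 2 on day 16 (22.4%). For DXR no member was called on days 1 and 2 (20.7% and 13.3%), and the counts were 0 and 1 on day 3 (12.3%), 1 and 2 on day 4 (19.5%), 3 and 1 on day 6 (25.8%), 1 and 2 on day 8 (23.3%) and 1 and 1 on day 16 (31.3%). With 8 members, 1 gene more or less moves such a share a great deal, so nothing particular to the members is read from these counts.

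The wider osmotic and ion transport genes were then counted, from a list of 107, of which 73 were tested. On KCl day 0, 27 were higher and 18 lower, 16 of them higher by at least 1 on the log2 scale. That is 61.6% called beside the 52.2% of all genes, and 60% (21 higher, 18 lower) among the 65 that are not members. Among all genes 24.3% were higher and 27.9% lower, and 7.51% were higher by at least 1. SDS gave 17 higher and 24 lower (56.2% called, beside 41.8% of all genes) and DXR 18 and 11 (39.7%, beside 29.2%), so that a share above that of all genes was not particular to KCl.

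Genes of organic osmolytes were mostly higher on KCl day 0, with 10 of 16 higher, 3 lower and a median log2 change of 0.68. That was 81.2% called, beside 52.2% of all genes (24.3% higher and 27.9% lower). The members AKR1B1, SLC5A3 and SLC6A6 are among the 10 higher, so this count in part repeats their result. SDS gave 6 higher and 4 lower (62.5% called), beside 41.8% of all genes (20.6% higher and 21.2% lower). DXR gave 4 higher and 1 lower (31.2% called), beside 29.2% of all genes (13.5% higher and 15.7% lower). Besides the members, SLC6A9, the glycine transporter GLYT1, rose from 155 to 1626 on KCl day 0 (log2 3.39, SE 0.40, adjusted p = 1.46e-16), yet it rose to 2994 with SDS and 396 with DXR as well. The 4 genes of NFAT5 and tonicity-induced chaperones were all called on KCl day 0, 3 higher and 1 lower, and 50% were called with each of SDS and DXR. With KCl the small heat shock protein CRYAB rose from 321 to 1950 (log2 2.60, adjusted p = 2.78e-14) and the HSP110 chaperone HSPH1 from 3236 to 10655 (1.72, adjusted p = 1.92e-95), whereas HSPA4L, also known as osmotic stress protein 94, fell from 322 to 216 (-0.58, adjusted p = 0.00426). CRYAB also rose with DXR (0.66) and HSPH1 with SDS (0.67), while HSPA4L fell with SDS (-0.90) and rose with DXR (1.31).

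Subunits of the Na,K-ATPase rose together on KCl day 0, with 3 of the 4 tested higher and none lower (75% called, beside 52.2% of all genes). The member ATP1B1 is among the 3. ATP1B3, another beta subunit, went from 3224 to 10253 (log2 1.67, adjusted p = 7.70e-94), and rose with DXR as well (0.36). None of the 4 was called with SDS and 3 were higher with DXR, where 41.8% and 29.2% of all genes were called. Of the cation-chloride cotransporters 3 of 6 were higher and 1 lower on KCl day 0 (66.7% called), while 50% were called with SDS and 16.7% with DXR. With KCl, SLC12A8 went from 129 to 452 (1.82, adjusted p = 1.90e-17), and KCC1 (SLC12A4), which lets potassium and chloride out, from 2764 to 4796. SLC12A4 rose with SDS and DXR too (log2 0.31 and 0.96), and SLC12A8 was called with neither.

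The other groups were mixed on KCl day 0, when 24.3% of all genes were higher and 27.9% lower. Among sodium and bicarbonate transport genes 75% were called, and 75% with SDS as well. Among volume and potassium channels 36.8% were called with KCl, and among kinases and regulators of ion transport 55.6%, beside 52.2% of all genes. Of 12 sodium and bicarbonate transport genes, 4 were higher and 5 lower with KCl, and the bicarbonate transporters SLC4A8, SLC4A7 and SLC4A4 fell from 381 to 113, from 1754 to 562 and from 1310 to 504 (log2 -1.76, -1.64 and -1.38). Of 19 volume and potassium channels, 2 were higher and 5 lower, and KCNQ5, KCNK2 and KCNMA1 fell from 202 to 85.3, from 235 to 112 and from 2071 to 1160 (log2 -1.25, -1.07 and -0.84). Each of these named falls was also called with another inducer. SLC4A8, SLC4A7, SLC4A4 and KCNQ5 fell with SDS (log2 -1.21, -0.40, -0.88 and -1.11) and with DXR (-0.97, -0.38, -1.45 and -1.37). KCNMA1 fell with DXR (-0.37) but was not called with SDS, and KCNK2 fell to 14.6 with SDS and rose to 409 with DXR. Of 9 kinases and regulators of ion transport, 2 were higher, SGK1 and NEDD4L (464 to 1315, log2 1.50, adjusted p = 7.37e-27), and 3 lower, with WNK4 from 421 to 195 (log2 -1.11, adjusted p = 7.27e-10). WNK4 also fell with SDS (-1.59) and was not called with DXR, and NEDD4L was called with neither. No aquaporin of the 3 tested was called.

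**Figure D5:**
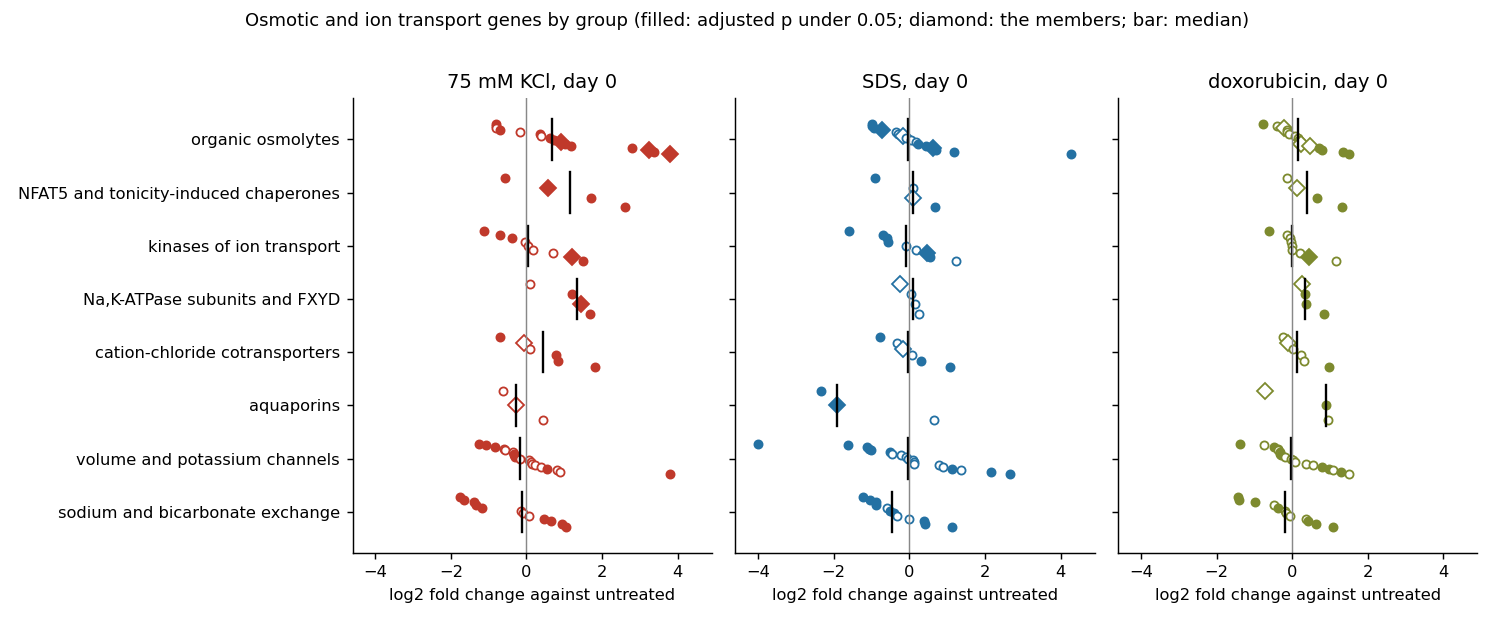
Log2 fold change on day 0 of KCl, SDS and DXR for the tested genes of each group of the wider osmotic and ion transport list, with 1 point a gene (filled where called, diamonds for the members) and a bar at the median. Organic osmolyte genes have a median of 0.68 with KCl, and the Na,K-ATPase and FXYD group one of 1.33.

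The genes whose levels ran most like those of each member over the 24 treated groups were found by Pearson's r of log2(level + 1) among 10033 genes, as a description. SLC5A3 was nearest to MRPS6 (r = 0.971), its neighbour with the shared start, and to ADGRA3 (0.954), and these values fell to 0.828 and 0.771 without KCl day 0. AKR1B1 was nearest to AGPAT4 (0.908, and 0.740 without KCl day 0) and to ME1, malic enzyme (0.906 and 0.730). SLC6A12 was nearest to BTN2A1 (0.889) and RILPL2 (0.877), which rested on KCl day 0, since r was 0.432 and 0.328 without it. ATP1B1 was nearest to EPHA2 (0.933 and 0.886) and DHX38 (0.923 and 0.852), and SGK1 to SKIL (0.900 and 0.833) and RUNX1 (0.891 and 0.809). SLC6A6 was nearest to SLC12A8, of the list above (0.901 with and without KCl day 0), and to LAMB1 (0.894 and 0.886), and AQP1 to CAV2 (0.911 and 0.910) and SPEG (0.885 and 0.887). NFAT5 was nearest to NT5C2 (0.828) and RAPGEF1 (0.824), and SLC12A2 had no near match, with ZNF721 at 0.715 and DGKH at 0.652. All points share the common size-factor scale, and none of these relations was tested.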

How the data were processed

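RNA of WI-38 cells had been sequenced by the authors as paired-end reads. The submitters' processing notes name Trim Galore, HISAT2, HTSeq, featureCounts and DESeq2, without roles or versions, and the GRCh38 build. The deposited tables give, per gene, a signal (the mean of size-factor-normalized counts over a group and the untreated group), the log2 fold change and the standard error belonging to it, the Wald p-value and an adjusted p-value, all computed by the authors. These columns are the authors' own comparisons and were used because no table gave single libraries. The 52 files held 25 distinct tables, and the 27 repeats were not used.

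Whole read counts and size factors of each library were worked out from the deposited mean signal, whose multiples must fit whole counts in both groups. All 225 pairs of a member and a table were solved: 219 had 1 solution and 6 were settled by the deposited fold change. The recovered counts carry no replicate number. The deposited p-values were adjusted again (Benjamini-Hochberg) over genes with a mean level of at least 10, and a difference between inducers was set against both standard errors, combined as independent. The untreated libraries enter both terms, so their error is counted in each and these p-values are too large. The steps were tested on simulated data. All members are named, with the 3 largest called changes of each wider group on KCl day 0 (mean level at least 100) and the 2 genes most like each member. Some genes that this rule names are not reported here. The members and lists were chosen with earlier results of these data known. Promoters came from RefSeq GRCh38.p14 and gene positions from GENCODE 29. The work was done with pandas 2.3.3, matplotlib 3.10.9, numba 0.67.0, SciPy 1.17.1 and NumPy 2.4.6 under Python 3.11.15.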

Additional observations from a re-analysis of the deposited data

Results flagged for a closer look

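A difference between inducers that passed its own test on day 0 was set aside for a closer look, and these values are log2 differences. KCl minus SDS gave 0.475 for NFAT5, 3.162 for AKR1B1, 3.978 for SLC5A3, 1.068 for SLC6A6, 0.733 for SGK1, 1.705 for ATP1B1 and 1.619 for AQP1. KCl minus DXR gave 0.435 for NFAT5, 3.545 for AKR1B1, 2.785 for SLC5A3, 1.131 for SLC6A6, 0.770 for SGK1 and 1.181 for ATP1B1. Both sets share the KCl and untreated libraries and are not independent of each other.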

How the results depend on the processing

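No paired analysis was possible because the recovered counts carry no replicate number. Asking for a log2 change or difference of at least 1 beside the adjusted p lowered the calls from 31 to 12 for KCl, from 19 to 4 for SDS, from 14 to 2 for DXR, from 3 to 1 for RS, from 15 to 5 for KCl minus SDS, from 15 to 5 for KCl minus DXR and from 45 to 24 for the wider list on KCl day 0, since the criterion itself is stricter. Scaling by library totals, other level filters, the deposited adjusted p-value and taking out the shared untreated error kept every count within 1.5 times. Taking out the shared error raised the calls from 15 to 19 for KCl minus SDS and from 15 to 22 for KCl minus DXR. Leaving out a library in turn gave 26 to 30 calls for KCl, 12 to 20 for SDS (12 without the larger untreated library), 10 to 13 for DXR and 2 to 3 for RS. All 6 KCl day 0 rises kept their call and no call changed sign, but 9 of the 31 KCl calls, 10 of the 19 SDS calls, 9 of the 14 DXR calls and 2 of the 3 RS calls were lost without some library. Among the day 0 differences, the NFAT5 and AQP1 calls were lost most often: NFAT5 against DXR and AQP1 against SDS each in 4 of 6 cases. The cause was not tested. With 2 libraries a group, small changes and those of AQP1 and SLC6A12 are the least precise.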
